A study of Rattus norvegicus with 12 samples.

Results

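A set of 8 genes that mark oligodendrocyte lineage cells after commitment and before myelination (Gpr17, Bcas1, Enpp6, Tcf7l2, Itpr2, Fyn, Tns3 and Sirt2) were examined in primary rat oligodendrocyte precursor cells (OPCs) cultured at reduced or ambient oxygen. They were taken by symbol from the deposited count table. All 8 of 8 were found among its 30562 genes, each in 1 row, and all 8 were among the 8938 genes kept by the filter on low counts. The 6 libraries of mild-hypo-OPCs came from wild-type (WT) OPCs kept at a fraction of inspired oxygen (FiO2) of 5%, and the 6 libraries of standard OPCs came from WT OPCs kept in room air. Both groups were bulk RNA-seq of cells from the cerebral cortex of newborn Sprague-Dawley rats, grown with PDGF-AA and FGF-2, factors that keep OPCs dividing, so that the cultures model precursors and not myelinating tissue. The labels give the exposure as 6 hours and the culture protocol as 6 days, which could not be resolved. The protocol can also be read as placing a spell of severe oxygen and glucose deprivation ahead of the mild hypoxia, a step that the labels do not mention, and the comparison would then cover both. No label ties the libraries to separate cultures, and the replication written for this experiment is 3 biological replicates per group, fewer than the 6 libraries. If libraries share a culture the errors below are too small, and the p-values below therefore measure the spread between these libraries, which may be technical. The question the comparison addresses is whether mild hypoxic preconditioning moves OPCs along the lineage.

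OPCs divide, carry the PDGF receptor and can stay undecided for long periods. When a cell commits to differentiate it passes through a short premyelinating stage, in which it leaves the cell cycle, grows branched processes and has not yet wrapped an axon. GPR17, a G protein-coupled receptor related to the P2Y and cysteinyl leukotriene receptors, is known to appear at this stage and to be lost again before myelin is made. BCAS1 and ENPP6 are known as labels of newly forming oligodendrocytes, TCF7L2 is a nuclear effector of WNT signalling used in differentiation, and FYN, a Src-family kinase, acts in process outgrowth and local MBP translation.

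Gpr17 rose in mild-hypo-OPCs and was the only member of the group to pass the test. It stood at 967 ± 94.3 CPM (SD, n = 6; CPM is the count scaled to a common library total) in standard OPCs. At 5% FiO2 it stood at 1324 ± 108 CPM (SD, n = 6), which is 1.37-fold higher (95% confidence interval 1.21 to 1.55). The other 7 members did not pass, and their log2 fold changes lay between −0.21 for Itpr2 and 0.21 for Tcf7l2, with a range of −0.27 to −0.12 and of 0.08 to 0.35 when each library was left out. The rise of Gpr17 was lost when the total count of each library was added to the model as a covariate, which gave a log2 fold change of 0.15 (SE 0.17) and an adjusted p of 0.916 by edgeR; 0 of the 8938 genes were called higher in that fit, and 217 were higher at an unadjusted p under 0.05.

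To show the sequence next to the gene that rose, the 250 bases upstream of the annotated start of Gpr17 are printed here, together with those of Tns3, whose level followed that of Gpr17 most closely among the members within the groups but did not pass the test. Both were taken from RefSeq (assembly GRCr8) by symbol, and 7 of the 8 members had an entry; Bcas1 had none. The Gpr17 window is chr18:23857382-23857631 on the minus strand and the Tns3 window is chr14:87619387-87619636 on the minus strand. Letters run 5′ to 3′ towards the start, and capitals mark matches to the searched motifs.
Gpr17: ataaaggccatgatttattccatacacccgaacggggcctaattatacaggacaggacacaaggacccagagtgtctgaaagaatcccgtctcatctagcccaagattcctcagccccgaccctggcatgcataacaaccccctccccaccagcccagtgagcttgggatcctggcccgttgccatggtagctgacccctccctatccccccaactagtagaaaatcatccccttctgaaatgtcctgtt
Tns3: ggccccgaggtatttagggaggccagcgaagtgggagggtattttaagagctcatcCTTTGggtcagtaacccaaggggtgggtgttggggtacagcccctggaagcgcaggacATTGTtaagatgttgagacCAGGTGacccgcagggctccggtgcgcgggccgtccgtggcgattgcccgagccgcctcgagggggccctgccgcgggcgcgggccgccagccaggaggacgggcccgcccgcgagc
Both strands were searched for 5 short motifs, chosen after the values were known: ACGTG and GCGTG (cores of hypoxia response elements), ACAAT (core bound by SOX proteins), CANNTG (E-box, the site of bHLH factors) and CTTTG (core bound by TCF proteins). None of the 5 occurred in the Gpr17 window, which had a GC content of 53.2% and 5 CpG sites. The Tns3 window had a GC content of 68.0% and 22 CpG sites, with 1 match each to ACAAT (position −136 from the start, minus strand), CANNTG (position −117) and CTTTG (position −194, plus strand). Among 33469 promoters of the same length, ACGTG was found in 16.6%, GCGTG in 25.9%, ACAAT in 30.0%, CANNTG in 65.5% and CTTTG in 48.2%. A match or its lack in so short a window says nothing of the binding of these factors.

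The 2 groups differed in sequencing depth as well as in oxygen. The mild-hypo-OPC libraries held 4111669 to 9022324 counts (median 4915674). The standard OPC libraries held 1356079 to 2797513 (median 1952621), so that the deepest of them was shallower than the shallowest mild-hypo-OPC library. The share of counts on the ribosomal RNA genes Rn18s, Rn28s and Rn45s was at most 17.3% in mild-hypo-OPCs (median 13.3%) and ranged from 16.8% to 26.3% among standard OPC libraries (median 22.0%). Depth and condition cannot be told apart in this design. Levels below are CPM after scaling with TMM factors, of 1.08 to 1.23 for the mild-hypo-OPC libraries and 0.809 to 0.945 for the others. CPM does not account for gene length, and levels are therefore not compared between genes.

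All log2 fold changes below are mild-hypo-OPC over standard OPC, from edgeR's quasi-likelihood test fitted to all 8938 genes with Benjamini-Hochberg adjustment and a threshold of 0.05. Of the 8 members, 1 was called higher, against 7.00% of all genes tested, and 0 were called lower, against 17.0%. limma-voom and DESeq2 also called 0 members lower, and 0 had an unadjusted p under 0.05 in the lower direction with edgeR. At an unadjusted p under 0.05, 2 members were higher. Of the 8938 genes tested, 1200 were higher and 2043 lower at this level with edgeR. In either direction 36.3% of all genes were past this level (24.0% were called after adjustment). The median log2 fold change of the members was 0.03, with 4 of 8 above 0, and that of all genes tested was −0.0031, with 49.6% above 0. The summed level of the 8 members was 6254 to 7024 CPM in mild-hypo-OPCs and 5809 to 7019 CPM in standard OPCs, and these ranges overlapped. In bulk libraries, fewer cells of a type and less RNA per cell cannot be told apart.

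**Figure D1:**
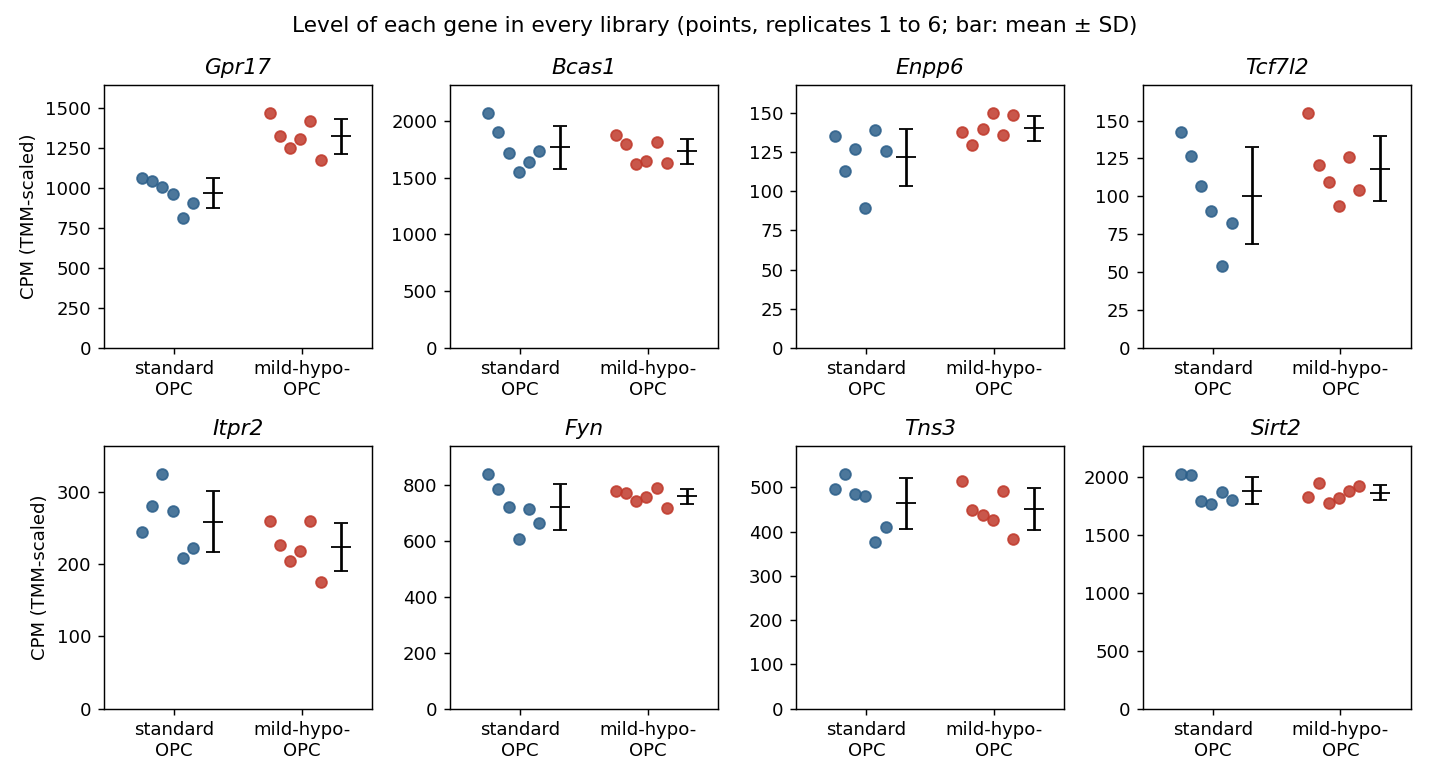
Level of each of the 8 genes (CPM, TMM-scaled, vertical axes from 0) in the 6 standard OPC and 6 mild-hypo-OPC libraries; points are libraries, bars the mean ± SD. The 6 mild-hypo-OPC libraries sit above all 6 standard OPC libraries for Gpr17, from 1173 against at most 1062 CPM, and the groups overlap for the other 7 genes.

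Gpr17 (ENSRNOG00000065480) encodes the receptor that marks the committed stage. Across the mild-hypo-OPC libraries its lowest level was 1173 CPM, its median 1314 CPM and its highest 1468 CPM. Across the standard OPC libraries these were 812, 987 and 1062 CPM. The groups did not overlap, so that each mild-hypo-OPC library lay above each standard OPC library; 2.94% of all genes tested were separated in this direction. The log2 fold change was 0.45 (SE 0.09, 95% confidence interval 0.27 to 0.63, adjusted p = 0.000842 by edgeR). The mild-hypo-OPC libraries held 6363 to 14077 counts of Gpr17 and the standard OPC libraries 1049 to 2778. Leaving out each library in turn gave log2 fold changes between 0.41 and 0.51, and Gpr17 was called in 12 of 12 such fits. Thinning every library to the smallest total count gave 0.43 (adjusted p = 0.00139 by edgeR). Within the standard OPC group, the 3 deepest libraries had 1008 to 1062 CPM and the 3 shallowest 812 to 965 CPM. Within the mild-hypo-OPC group, the 3 deepest libraries had 1251 to 1468 CPM and the 3 shallowest 1173 to 1322 CPM, and these overlapped. Lims2, which overlaps Gpr17 in the RefSeq annotation, had 5 to 56 counts, at most 0.82% of the Gpr17 count of a library.

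**Figure D2:**
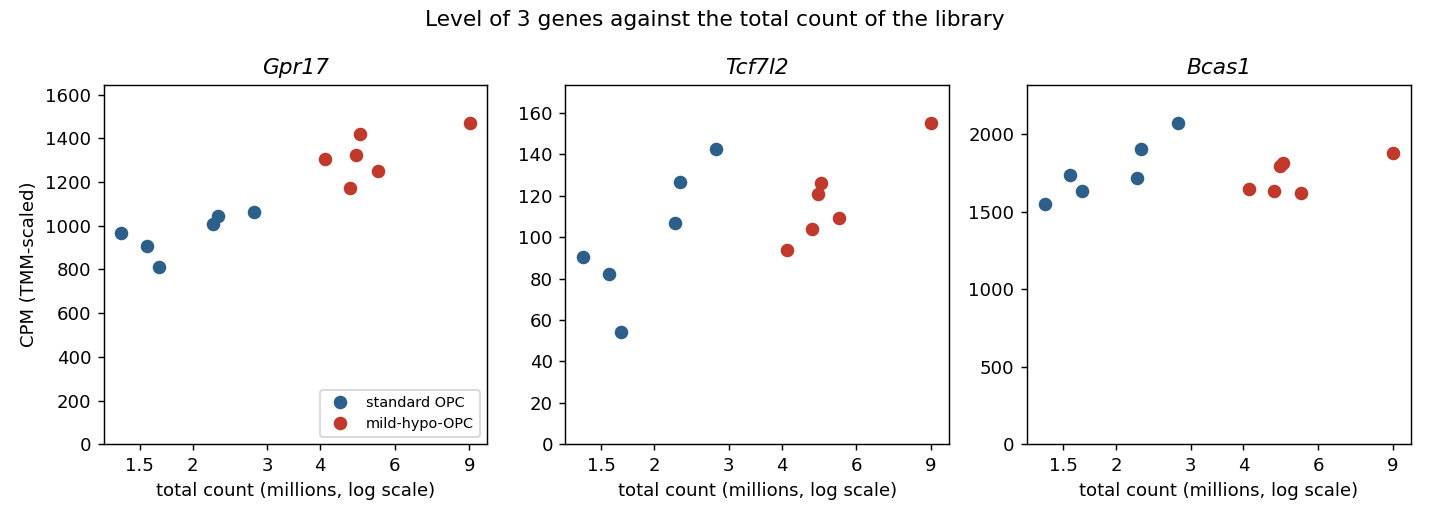
Level of Gpr17, Tcf7l2 and Bcas1 (CPM, TMM-scaled) against the total count of each library (horizontal axis, log scale); each point is a library and colours mark the groups. The standard OPC libraries lie at the left, with at most 2797513 counts, the mild-hypo-OPC libraries at the right, with at least 4111669, and no depth is shared by the groups.

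Bcas1 and Enpp6 are the 2 other members best known as labels of newly forming oligodendrocytes. Bcas1 (ENSRNOG00000012906), which encodes a brain-enriched protein found in early myelinating cells, had 1618 to 1880 CPM in mild-hypo-OPCs (median 1722) and 1550 to 2069 CPM in standard OPCs (median 1726). The ranges overlapped and the medians lay side by side. Its log2 fold change was −0.03 (SE 0.08, 95% confidence interval −0.21 to 0.15, adjusted p = 0.827 by edgeR). Enpp6 (ENSRNOG00000009660), which encodes a choline-specific phosphodiesterase of the cell surface, had 129 to 150 CPM in mild-hypo-OPCs (median 139) and 89.3 to 139 CPM in standard OPCs (median 126). The standard OPC median was exceeded in all 6 mild-hypo-OPC libraries, and the highest standard OPC library in 3 of them. Its log2 fold change was 0.20 (SE 0.09, 95% confidence interval 0.01 to 0.39), with an unadjusted p of 0.0441 and an adjusted p of 0.126 by edgeR. With upper-quartile scaling Enpp6 passed (0.27, adjusted p = 0.0362 by edgeR).

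Tcf7l2 (ENSRNOG00000049232) encodes the HMG-box transcription factor through which WNT and β-catenin act on differentiating oligodendrocytes. It had 93.6 to 155 CPM in mild-hypo-OPCs (median 115) and 54.0 to 143 CPM in standard OPCs (median 98.5). It was the most variable member, with a coefficient of variation between libraries of 18.2% in mild-hypo-OPCs and 31.8% in standard OPCs. Its log2 fold change of 0.21 (SE 0.17, 95% confidence interval −0.14 to 0.56, adjusted p = 0.383 by edgeR) was within this spread. The 3 deepest standard OPC libraries had 107 to 143 CPM of Tcf7l2 and the 3 shallowest 54.0 to 90.2 CPM. With the total count as a covariate, its log2 fold change turned to −0.80 (SE 0.24, adjusted p = 0.194 by edgeR).

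Itpr2 and Fyn act in signalling inside the cell. Itpr2 (ENSRNOG00000001804), the inositol trisphosphate receptor that releases calcium from the endoplasmic reticulum, had 175 to 260 CPM in mild-hypo-OPCs (median 222) and 209 to 325 CPM in standard OPCs (median 259). It had the lowest log2 fold change of the 8 members, −0.21 (SE 0.11, 95% confidence interval −0.45 to 0.02, adjusted p = 0.185 by edgeR). Of the mild-hypo-OPC libraries, 4 lay below the standard OPC median and 2 above it. Fyn (ENSRNOG00000000596) had 717 to 791 CPM in mild-hypo-OPCs (median 766) and 606 to 841 CPM in standard OPCs (median 718). The mild-hypo-OPC range lay inside the standard OPC range, with a log2 fold change of 0.07 (SE 0.08, 95% confidence interval −0.10 to 0.24, adjusted p = 0.557 by edgeR). The coefficient of variation of Fyn was 3.52% in mild-hypo-OPCs and 11.6% in standard OPCs.

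Tns3 and Sirt2 act at focal adhesions and on microtubules. Tns3 (ENSRNOG00000025695) encodes a tensin, which links integrins to the actin cytoskeleton. It had 382 to 515 CPM in mild-hypo-OPCs (median 443) and 377 to 530 CPM in standard OPCs (median 483), and its log2 fold change was −0.04 (SE 0.09, 95% confidence interval −0.24 to 0.15, adjusted p = 0.781 by edgeR). The ranges were almost the same. Sirt2 (ENSRNOG00000020102) encodes an NAD-dependent deacetylase of tubulin that is abundant in oligodendrocytes. It had 1779 to 1951 CPM in mild-hypo-OPCs (median 1852) and 1767 to 2026 CPM in standard OPCs (median 1836). Its log2 fold change was −0.01 (SE 0.07, 95% confidence interval −0.17 to 0.14, adjusted p = 0.918 by edgeR), the smallest of the 8 in size. The interval, which holds for TMM scaling, reaches up to a rise of 1.10-fold. With library size only, Sirt2 was called higher, at 0.42 (adjusted p = 0.000987 by edgeR). LOC103689966, which overlaps Sirt2 in the RefSeq annotation, had 17 to 518 counts, at most 4.37% of the Sirt2 count of a library.

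**Figure D3:**
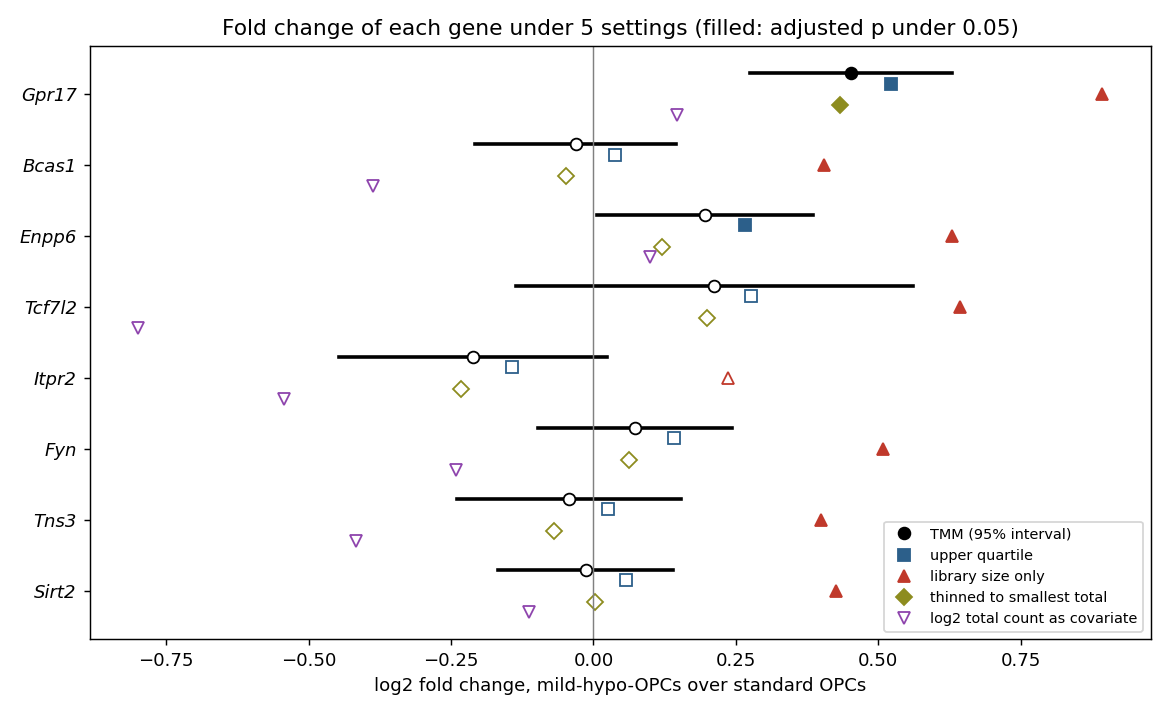
Log2 fold change (mild-hypo-OPC over standard OPC) of each of the 8 genes under 5 settings; bars are 95% confidence intervals of the TMM-scaled fit and filled points passed an adjusted p of 0.05. Gpr17 is at 0.45 with TMM scaling and at 0.15, unfilled, with the total count as a covariate, and all 8 genes shift upwards when counts are scaled by library size only.

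The scaling set where the members lay. With library size only, the median over all genes went to 0.43 on the log2 scale, 5515 genes were called higher and 405 lower, in place of 626 and 1520, and 7 of the 8 members were called higher. With upper-quartile scaling the median moved to 0.06, 1136 genes were called higher, and 2 members were called higher. Relative to the median of all genes, the log2 fold change of Gpr17 was 0.46 with TMM scaling, 0.46 with upper-quartile scaling and 0.46 with library size only, and that of Itpr2 was −0.21, −0.21 and −0.19. A change of scaling shifts all genes nearly alike, so these values stay close by construction and are not a test of either gene. With the log2 total count in the model, 0 members were called, and 4 were lower at an unadjusted p under 0.05: Bcas1 (−0.39), Tcf7l2 (−0.80), Itpr2 (−0.54) and Tns3 (−0.42). Of the 8938 genes tested, 488 were lower and 217 higher at this level in the same fit. Depth followed some members among the standard OPCs, where the 3 deepest libraries also lay above the 3 shallowest for Fyn (721 to 841 against 606 to 714 CPM) and Tns3 (484 to 530 against 377 to 481 CPM); for Bcas1, Enpp6, Itpr2 and Sirt2, and for all 8 among the mild-hypo-OPC libraries, the deepest and shallowest 3 overlapped. Over both groups, after subtracting each group mean, the correlation of log2 CPM with log2 total count (Pearson, 12 libraries, a description) was positive for all 8 members and highest for Bcas1 (r = 0.77), followed by Tcf7l2 (0.74), Fyn (0.71), Gpr17 (0.64), Tns3 (0.60), Itpr2 (0.40), Sirt2 (0.38) and Enpp6 (0.27).

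To compare Gpr17 with the other members free of any scaling factor, the log2 ratio of its count to theirs was taken within each library. These ratios are a description and were not tested. How often such ratios separate the groups over all genes was not counted. Gpr17 itself separated the groups, so its ratio to a gene that changed little tends to separate them too. The log2 ratio of Gpr17 to Bcas1 was −0.48 to −0.33 at 5% FiO2 and −1.01 to −0.68 in room air. The ratio to Tns3 was 1.51 to 1.62 at 5% FiO2 and 0.98 to 1.14 in room air, and thus varied little within a group. Ratios to Itpr2, Fyn and Sirt2 were also higher in each mild-hypo-OPC library than in each standard OPC library, and the mean differences over these 5 genes were between 0.37 (Fyn) and 0.66 (Itpr2) on the log2 scale. The ratios of Gpr17 to Enpp6 (mean difference 0.24) and to Tcf7l2 (mean difference 0.18) overlapped between the groups.

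**Figure D4:**
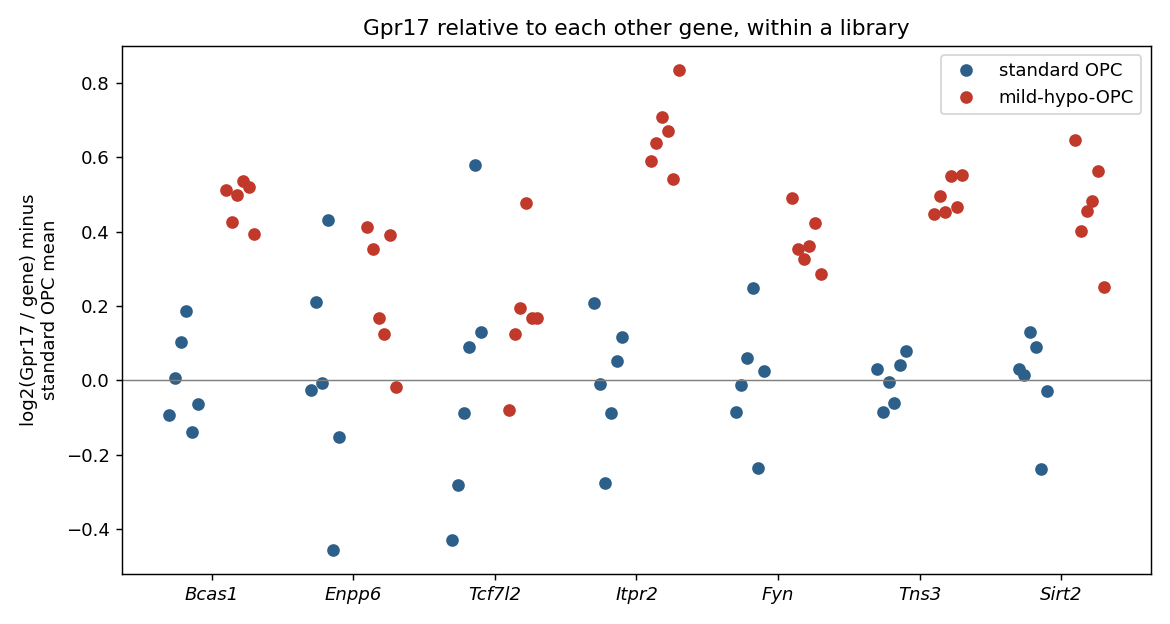
Log2 ratio of the Gpr17 count to the count of each other gene within a library, less the mean of the standard OPC libraries (vertical axis, log2 units); each point is a library. The groups are apart for Bcas1, Itpr2, Fyn, Tns3 and Sirt2, by a mean of 0.37 to 0.66, and overlap for Enpp6 and Tcf7l2.

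Ratios to precursor and lineage genes were taken in the same way, again without a count of separated ratios over all genes. The log2 ratio of Gpr17 to Pdgfra, the receptor that marks OPCs, was 2.40 to 2.62 at 5% FiO2 and 1.76 to 2.34 in room air, with no overlap and a mean difference of 0.41. The ratio of Gpr17 to Sox10, a transcription factor of the whole lineage, had a mean difference of 0.21, with 5 of 6 mild-hypo-OPC libraries above the highest standard OPC library. The ratio of Bcas1 to Sox10 was 1.54 to 1.70 at 5% FiO2 and 1.82 to 2.13 in room air, lower in each mild-hypo-OPC library, with a mean difference of −0.27. Sox10 itself had a log2 fold change of 0.23 (SE 0.10, adjusted p = 0.0910 by edgeR). With Olig2, another lineage factor, in place of Sox10, the mean difference for Bcas1 was −0.11 and the groups overlapped. None of the other 6 members was separated from the standard OPC libraries in its ratio to Pdgfra, Sox10 or Olig2. The mean difference in the ratio to Sox10 was −0.45 for Itpr2, −0.28 for Tns3, −0.25 for Sirt2 and −0.16 for Fyn. It was −0.03 for Enpp6 and 0.04 for Tcf7l2, so that a lower ratio to Sox10 was not particular to Bcas1.

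Within the groups, libraries with more Gpr17 also had more Tns3 (Pearson's r = 0.96 over 12 libraries, on log2 CPM after subtracting each group mean) and more Tcf7l2 (r = 0.90). Among the members, Bcas1 and Fyn also moved together (r = 0.87), and Enpp6 and Tns3 moved apart (r = −0.43). Among 2706 genes with a mean of at least 50 CPM, the 3 most like Gpr17 were Ppfibp1 (r = 0.98), Cyfip2 (r = 0.97) and Tns3. None of these 3 passed the test between the conditions, with log2 fold changes of −0.03, 0.09 and −0.04. The libraries differ in depth, and Gpr17 itself followed the total count within the groups, so these correlations share depth as well as the library and are given as a description.

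The genes of the stages before and after, and of the pathways of the members, were then read from the same fit. The counts below hold for TMM scaling, with which 7.00% of all genes tested were called higher and 17.0% lower. The lists were chosen with earlier results of these data known. With library size only, the genes called higher became 12 of 14 for the OPC genes, 23 of 25 for other committed and newly formed genes, 13 of 13 for mature myelin genes, 8 of 10 for GPR17 signalling, 15 of 16 for FYN partners, 11 of 11 for tensins and adhesion, 6 of 7 for TCF7L2 partners, 5 of 7 for calcium release, 7 of 9 for sirtuins and 6 of 9 for choline handling. In that setting 5515 of the 8938 genes tested were called higher and 405 lower. Of these lists, 1 gene, Id2, was among the lower. The OPC markers Pdgfra (236 and 229 CPM in mild-hypo-OPCs and standard OPCs), Cspg4 (71.5 and 63.0 CPM), Sox10 (554 and 472 CPM) and Olig2 (306 and 289 CPM) were present in both groups. Of 14 tested OPC genes, 1 rose and 1 fell, with a median log2 fold change of 0.03. The one that rose was Cacng4, an auxiliary subunit of AMPA receptors (0.26, SE 0.09, adjusted p = 0.0486 by edgeR), a call that was lost without any 1 of 6 libraries, mild-hypo-OPC replicates 1 and 5 and standard OPC replicates 3 to 6, at an adjusted p of up to 0.0907. Pcdh15, a protocadherin typical of OPCs, fell from 66.3 ± 13.1 to 46.7 ± 5.69 CPM (SD, n = 6 each), a log2 fold change of −0.49 (SE 0.12, adjusted p = 0.00548 by edgeR), which shrank to −0.05 (adjusted p = 0.711) and lost its call with library size only.

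Of 25 other tested genes of committed and newly formed oligodendrocytes, 8 rose and 0 fell, with a median log2 fold change of 0.12; limma-voom called 7 higher and 0 lower, DESeq2 9 and 0, and 0 were lower at an unadjusted p under 0.05 with edgeR. Slc12a2, a sodium, potassium and chloride cotransporter, rose from 118 ± 13.1 to 164 ± 6.35 CPM (log2 fold change 0.47). Casr, the calcium-sensing receptor, had 4.77 ± 1.63 CPM in standard OPCs, from 3 to 20 counts per library, and 12.04 ± 1.77 CPM in mild-hypo-OPCs (1.23); it passed the filter on low counts through the mild-hypo-OPC libraries alone, so that its inclusion depended on being high there, and without it 7 of 24 rose. Ddr1, a collagen receptor kinase, and Sema4d, a semaphorin, rose by 0.40 and 0.55. For Slc12a2, Ddr1 and Sema4d the groups did not overlap, and each was called in 12 of 12 fits that left out a library. Over these fits 5 to 8 genes of the list were called higher, with 5 when replicate 2 or 5 of the mild-hypo-OPCs, or 4, 5 or 6 of the standard OPCs, was left out. The calls that depended most on single libraries were those of Neu4, a sialidase (called in 2 of 12 fits), Nkx2-2, a lineage transcription factor (4 of 12), and Myrf, the regulator of myelin genes (5 of 12), named after their values were seen. Of 21 listed mature myelin genes, 13 were tested, of which 7 rose and 0 fell, with a median log2 fold change of 0.28; limma-voom called 8 higher and 0 lower, DESeq2 9 and 0, and 0 were lower at an unadjusted p under 0.05 with edgeR. Among them were Cldn11, the tight junction protein of myelin (277 ± 55.2 to 405 ± 29.6 CPM, log2 fold change 0.54), Gpr37, an orphan receptor of oligodendrocytes (0.68), Mag, the myelin-associated glycoprotein (496 ± 94.4 to 689 ± 31.0 CPM, 0.47), and Apod, a lipocalin (0.36). The 6 tested genes not called included Mbp, at 0.29 (adjusted p = 0.0555 by edgeR), Gjb1 at 0.32 (0.0618) and Tspan2 at 0.17 (0.0904). The others were Mobp at 0.16 (0.619), Mog at 0.15 (0.578) and Aspa at −0.16 (0.274). The listed myelin genes not tested were below the filter on low counts, with at most 33 counts in a library (Car2). Leaving out each library gave 5 to 10 myelin genes called higher. The share of the 8 members called higher was thus 1 of 8, beside 8 of 25 (Casr included), 7 of 13 and 7.00% of all genes tested. Whether these shares differ was not tested.

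**Figure D5:**
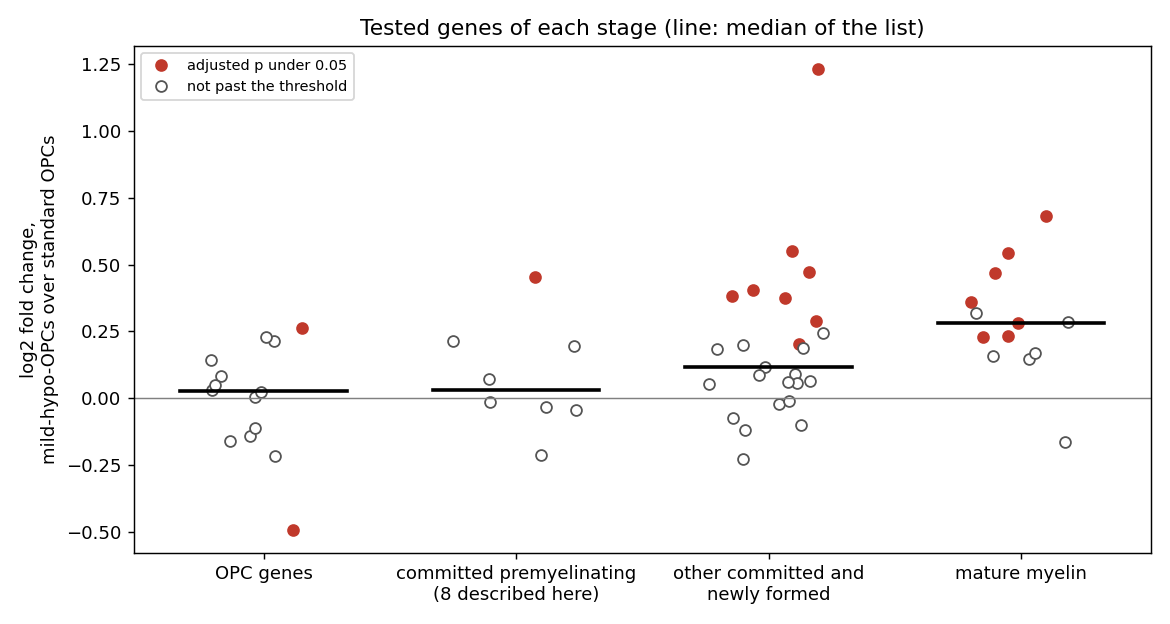
Log2 fold change (mild-hypo-OPC over standard OPC) of each tested gene of 4 lists along the lineage; points are genes, filled where the adjusted p was under 0.05, and lines are medians. The medians are 0.03 for the OPC genes, 0.03 for the 8 members, 0.12 for the other committed and newly formed genes and 0.28 for the mature myelin genes. Whether they differ was not tested, and the lists were chosen with earlier results of these data known.

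Genes that work with each member were read by list. Of 10 tested genes of GPR17 signalling, 1 rose and 1 fell, with a median log2 fold change of 0.08. The one that fell was Id2, an inhibitor of bHLH transcription factors that holds back differentiation and is known to act downstream of GPR17. It had 50.2 ± 2.77 CPM in mild-hypo-OPCs and 96.5 ± 14.9 CPM in standard OPCs (SD, n = 6 each), a log2 fold change of −0.93 (SE 0.10, adjusted p = 3.82e-05 by edgeR), without overlap; 5.40% of all genes were separated in this direction. Whether the fall of Id2 is linked to the rise of Gpr17 was not tested. Gnai1, a subunit of the inhibitory G protein, rose by 0.31 (SE 0.11, adjusted p = 0.0371 by edgeR), which was lost without mild-hypo-OPC replicate 1 or without standard OPC replicate 3, 4 or 6, with an adjusted p of up to 0.0820.

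Of 16 tested FYN partners and substrates, 4 rose and 1 fell (median 0.15). Cttn, the actin-binding cortactin, rose by 0.29, Csk, the kinase that inhibits Src-family kinases, by 0.38, and the laminin receptor subunits Itga6 and Itgb1 by 0.53 and 0.25. The call of Itgb1 was lost without standard OPC replicate 4, 5 or 6, with an adjusted p of up to 0.0590. Cdk5, a kinase of the cytoskeleton, which was named after its values were seen, had a log2 fold change of −0.38 (adjusted p = 0.0475 by edgeR) that turned to 0.06 with library size only and lost its call in 10 of 12 fits that left out a library (adjusted p up to 0.141). Of 11 tested tensin and integrin adhesion genes, 2 rose, and these were Itgb1 and Itga6 again (median 0.10); 4 were called higher without standard OPC replicate 1, and 1 without standard OPC replicate 4, 5 or 6. The tensins Tns1 and Tns2 had log2 fold changes of 0.40 (adjusted p = 0.0924) and −0.08 (adjusted p = 0.422) by edgeR.

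Of 7 tested TCF7L2 partners, 0 were called by edgeR, limma-voom or DESeq2 (median 0.0021), against 6 called higher by edgeR with library size only. At an unadjusted p under 0.05, 1 of these 7 was lower with edgeR, the β-catenin scaffold Apc (log2 fold change −0.33, adjusted p = 0.102). Ctnnb1, β-catenin itself, had 448 and 473 CPM (−0.08, adjusted p = 0.409 by edgeR). Of 7 tested genes of calcium release and refilling of the endoplasmic reticulum, 1 rose (median 0.0074), the calcium pump Atp2a2 (0.26, adjusted p = 0.0260 by edgeR), which was lost without standard OPC replicate 4, 5 or 6 with an adjusted p of up to 0.0593. Itpr1 and Itpr3, the other inositol trisphosphate receptors, were below the filter on low counts.

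Of 9 tested sirtuins and genes of tubulin deacetylation, 2 rose and 1 fell (median −0.06). Hdac6, the other main tubulin deacetylase, rose from 19.3 to 25.9 CPM (0.46), and Atat1, the tubulin acetyltransferase, from 179 to 225 CPM (0.32), the latter lost without standard OPC replicate 3, 4, 5 or 6. Sirt3, the mitochondrial sirtuin, fell from 15.5 to 9.70 CPM (−0.62), a call lost when mild-hypo-OPC replicate 5 was left out, and also without replicate 3 or 6 of the standard OPCs. With library size only, Sirt3 was at −0.20 (adjusted p = 0.346 by edgeR). The adjusted p without these libraries reached 0.0680 for Atat1 and 0.0662 for Sirt3. Of 9 tested genes of choline handling and the ENPP family, 1 rose (median 0.07), Enpp4, a phosphodiesterase (0.35), with up to 3 called higher when a library was left out (standard OPC replicate 1), and Enpp2 or autotaxin, a secreted family member made by oligodendrocytes, had 404 and 385 CPM (0.07, adjusted p = 0.529 by edgeR). Of the 36 called genes over all lists, those of other cell types included, 36 lost the call with the total count as a covariate, at an adjusted p of 0.203 to 0.998, and 21 were called in each of 12 fits that left out a library.

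Markers of other cell types were present at different levels in the groups. The summed level of 10 microglia markers was 56.1 to 78.9 CPM in mild-hypo-OPCs and 29.4 to 56.0 CPM in standard OPCs, without overlap; 3 of 4 tested rose, with 1 of the 4 called when standard OPC replicate 3, 4, 5 or 6 was left out, and the most abundant, Csf1r, had 18.1 and 11.2 CPM. The lowest microglia sum in mild-hypo-OPCs, 56.135 CPM, lay barely above the highest in standard OPCs, 55.98 CPM. Sums of markers here hold for TMM scaling, and how often sums of other genes separate the groups was not counted. The summed level of 9 neuron markers was 359 to 418 and 266 to 343 CPM, without overlap. Among the 6 tested, 1 rose, Tubb3 (log2 fold change 0.72), named after its values were seen. The most abundant, Map2, had 134 and 113 CPM and was not called (adjusted p = 0.0603 by edgeR). Through the mild-hypo-OPC libraries alone, 2 of these 6 and 1 of the 4 microglia markers passed the filter on low counts, and they were not called. The summed level of 8 astrocyte markers was 852 to 995 and 804 to 906 CPM, with overlap. Among the 7 tested, 2 rose, Aqp4 (0.79) and Slc1a3 (0.25), and 1 fell, S100b (−0.46), all named after their values were seen. With library size only, S100b was at −0.018 (adjusted p = 0.894 by edgeR). The most abundant, Gfap, had 380 and 351 CPM and was not called (adjusted p = 0.283 by edgeR). The 9 endothelial and mesenchymal markers found summed to at most 3.20 CPM, with Lum at 0 in every library and Col1a1, the most abundant, at 0.736 and 0.191 CPM. The part of these cells in the difference of Gpr17 was not tested.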

How the data were processed

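Bulk RNA-seq was analysed in 12 libraries, 6 per group, grouped by their labels. The authors trimmed reads with Trimmomatic 0.36, aligned them with STAR 2.7.9a (build mRatBN7.2) and used RSEM 1.3.3 for quantification (versions from the submitters' processing notes); the deposited values are raw counts in whole numbers for each Ensembl gene, and how RSEM's estimates were made whole is not given in the sources used here. Libraries were prepared with a strand-specific kit. Within each group, all 15 pairs of libraries differed by more than sampling noise (chi-square per degree of freedom 3.22 to 19.7), and none was counted as a repeat deposit. All columns were used.

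In R 4.3.3, a gene was kept where its CPM exceeded 10 in 1 library or more, and edgeR 4.0.16 was run (TMM, glmQLFit, glmQLFTest, condition as the only term, Benjamini-Hochberg adjustment over all genes kept, threshold 0.05). SEs are those implied by the F statistic. Intervals and errors cover the deposited libraries only. CPM per library were TMM-scaled, and log2 CPM used a prior count of 2. Log2 ratios used counts plus 0.5. The scripts were tested on simulated data. Alternatives were limma-voom (limma 3.58.1), DESeq2 1.42.0, scaling by upper quartile or by library size only, thinning, 3 other filters on low counts, log2 total count as a covariate, the replicate number as a block, and leaving out each library. The members and lists were chosen with earlier results of these data known. Named genes are the 8 members, at most the 4 called genes of lowest p in each stage or pathway list, the most abundant marker of other cell types and those at 0, and the 3 genes most like a called member; exceptions are named as such or given as values only. Promoter windows came from RefSeq (GRCr8). Figures were drawn with matplotlib 3.10.9.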

Additional observations from a re-analysis of the deposited data

How the results depend on the processing

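Members called higher numbered 1 as reported, 2 with upper-quartile scaling, 7 with library size only and 0 with the log2 of the total count in the model (the covariate below; by edgeR, 0 members higher and 4 lower at an unadjusted p under 0.05); over all genes tested, 626 higher became 1136 (upper quartile), 5515 (library size only), 412 (thinned to the smallest total) and 0 (covariate; 217 at an unadjusted p under 0.05), and 1520 lower became 405 (library size only) and 43 (covariate), so that 29.2% of calls were higher as reported, 47.5% with upper-quartile scaling and 93.2% with library size only. With the covariate, 488 of the 8938 genes tested were lower at an unadjusted p under 0.05 by edgeR. Gpr17 kept its call in 9 of 10 settings, and lost it with the covariate (0.15). Signs turned, compared with the reported values, for Bcas1 (0.038 upper quartile, 0.40 library size, 0.0034 no filter), Tns3 (0.026 and 0.40), Sirt2 (0.057, 0.42, 0.021, and 0.0030 with at least 10 counts, 0.0026 thinned), Itpr2 (0.24, library size), Tcf7l2 (−0.80, covariate) and Fyn (−0.24, covariate). Leaving out each library gave 0.41 to 0.51 for Gpr17, −0.067 to 0.018 for Bcas1, −0.097 to 0.027 for Tns3, −0.031 to 0.026 for Sirt2, 0.084 to 0.35 for Tcf7l2, −0.27 to −0.12 for Itpr2, 0.13 to 0.25 for Enpp6 and 0.027 to 0.12 for Fyn, with 1 member called in each fit, 436 to 823 genes higher and 1165 to 1664 lower. With Olig2 in place of Sox10, the mean log2 ratio difference was 0.37 for Gpr17, −0.11 for Bcas1, −0.0030 for Fyn, −0.12 for Tns3 and −0.10 for Sirt2; the other 11 of 16 ratio comparisons moved by less than the spread between libraries. The cause of these moves was not tested. Depth limits the precision most in the standard OPC libraries, where Tcf7l2 had as few as 81 counts and Enpp6 97.

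Whether the replicate numbers pair the libraries is not known. Same-numbered libraries had correlations of −0.28 to 0.30 in their deviations from the group means, and 1 of 6 correlated best with its own number. So few correlations cannot exclude a pairing. With the replicate number as a block, Gpr17 had a log2 fold change of 0.45 (adjusted p = 0.00106 by edgeR), 1 member was called, and 572 genes were higher and 1471 lower; of the 36 called list genes, 3 lost the call.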
